A study of Homo sapiens with 36 samples.

Results

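The genes described are the 4 members of the TSC22 family (TSC22D1, TSC22D2, TSC22D3 and TSC22D4), the kinase gene SGK1, the co-chaperone gene FKBP5, the clock gene PER1 and the glucocorticoid receptor gene NR3C1. They are 8 of the 36601 genes in the count table and were matched by gene symbol. All 8 had enough reads to be tested. They were proposed with their responses to the ligand HyT36 in these libraries in view, so those responses are given below as descriptions, without p-values.

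The study fused endogenous proteins of HEK293 cells, an established human line from embryonic kidney, to HaloTag, a protein tag that binds its ligands covalently. HyT36 is a hydrophobic HaloTag ligand meant to make the tagged protein misfold, and it was used at 25 µM. The bulk RNA libraries used here come from clones 4 and 5, each given either the vehicle DMSO or HyT36, and every one of these 4 groups has 3 libraries. The protocols name exposures of 2 and 12 hours without saying which applies to the bulk libraries. Each clone is 1 line, so a difference between clones cannot be told apart from a difference between any lines picked from the pool. Which protein carries the tag is not stated in the labels. The most frequent guide RNA in every clone 4 library was named for HDAC2, with 2318 to 3504 reads, and in every clone 5 library for IGF1R, with 2623 to 3806 reads. The next guide in every clone 5 library was named for LRIG1, with 107 to 140 reads, against 5 to 13 reads for the next guide in clone 4. What the LRIG1 guide means for clone 5 was not tested. Cells without a tag were not among these 12 libraries, so an effect of HyT36 itself and an effect that needs the tag cannot be told apart.

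The glucocorticoid receptor waits in the cytoplasm in a complex with HSP90 and immunophilins. When it binds hormone it moves to the nucleus and raises transcription of target genes, among which TSC22D3 (also called GILZ), SGK1, FKBP5 and PER1 are commonly used readouts in many tissues. Each of them also answers to other inputs. TSC22D3 is a known target of FOXO transcription factors, SGK1 of cell stress and serum, and PER1 of the circadian clock and of CREB.

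Gene counts per library ranged from 22853946 to 28635511. The 14 epithelial markers examined reached a summed level of 53.8 to 106 CPM (counts scaled to library size) in 6 libraries, against 4.33 to 6.95 CPM in 6 others. The whole clone 5 DMSO group had many such transcripts, and so did 3 libraries of clone 4, namely DMSO replicate 1 and replicates 2 and 3 of HyT36. In 13 of the 14 markers a library had over 3 reads, and KRT81 never did. KRT19 made up much of the sum, at 32.2 to 69.9 CPM in the libraries with many such transcripts and 0.0418 to 0.235 CPM in those with few. Other markers split less. In clone 5, CLDN7 averaged 4.04 CPM with DMSO and 3.20 CPM with HyT36, and CDH1 0.531 and 0.539 CPM. The split by the summed level coincides in clone 5 with DMSO against HyT36, and their effects cannot be told apart there. Of 8 HEK293 markers, the neurofilament genes NEFM and NEFL never had more than 3 reads in a library, and SOX11 never more than 4. NEFM, NEFL and SOX11 had too few reads to be tested. VIM, CDH2, PAX2, LIN28B and CKB had at least 292 reads in every library. The summed HEK293 markers lay between 835 and 1025 CPM in all 12 libraries. Mitochondrial transcripts took 1.76 to 2.20% of the gene counts.

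Promoter sequence was read first, to show which known binding motifs lie in front of the members. RefSeq (GRCh38.p14) gave 23 start sites for 7 of the 8 members, and the 250 bases before each were searched on both strands. Printed are a window of TSC22D3, the member with the highest response in clone 4, of SGK1, the member with the smallest adjusted p between the clones below, and of PER1, which moved little with the ligand. The TSC22D3 window (chrX:107717063-107717312) and the SGK1 window (chr6:134174867-134175116) lie inside the span of their genes, before internal start sites. The PER1 window (chr17:8152405-8152654) lies directly before the gene. All 3 are on the minus strand and run 5′ to 3′, with searched motifs in capitals.
TSC22D3: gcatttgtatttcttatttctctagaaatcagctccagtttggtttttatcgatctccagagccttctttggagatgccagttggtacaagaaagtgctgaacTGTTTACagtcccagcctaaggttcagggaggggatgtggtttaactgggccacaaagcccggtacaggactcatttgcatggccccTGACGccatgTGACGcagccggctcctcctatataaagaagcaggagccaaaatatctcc
SGK1: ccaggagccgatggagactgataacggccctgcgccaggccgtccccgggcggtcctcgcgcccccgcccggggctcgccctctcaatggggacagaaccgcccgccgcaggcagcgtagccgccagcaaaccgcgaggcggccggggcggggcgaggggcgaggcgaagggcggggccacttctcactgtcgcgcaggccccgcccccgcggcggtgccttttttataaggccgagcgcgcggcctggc
PER1: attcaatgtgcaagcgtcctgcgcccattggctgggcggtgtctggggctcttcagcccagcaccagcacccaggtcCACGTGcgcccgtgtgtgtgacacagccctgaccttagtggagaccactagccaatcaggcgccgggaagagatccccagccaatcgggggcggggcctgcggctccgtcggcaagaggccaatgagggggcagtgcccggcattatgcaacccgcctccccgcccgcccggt

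The capitals in the TSC22D3 window mark TGTTTAC, the reverse complement of the forkhead motif GTAAACA bound by FOXO factors, whose first base is 147 bases before the start. They also mark 2 copies of TGACG, the core of the cAMP response element, whose first bases are 60 and 50 bases before it. Over 35116 such windows of all genes, 2.98% held GTAAACA and 21.2% held TGACG, in either orientation. Other member windows with GTAAACA or TGACG belonged to NR3C1, and another TSC22D3 window held TGACG. TSC22D3 had 4 windows, and the printed one held the most searched motifs, 3, against 0, 1 and 0 in the others. In the PER1 window the capitals mark the E-box CACGTG, the motif of CLOCK and BMAL1, 173 bases before the start. It occurred in 6.34% of all windows, and among the members also in FKBP5 and TSC22D1.

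The SGK1 window held none of the letters searched. The full glucocorticoid response element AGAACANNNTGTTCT was found in no member window and in 0.00285% of all windows. With so rare a match its absence from the member windows was all but certain, and nothing is read from it. Its 6-base part AGAACA was found in 12.4% of all windows and, among the members, in 1 TSC22D1 window. The ATF4 and C/EBP composite TGATGNAA was found in no member window and in 3.14% of all. These matches describe letters in 250-base windows and do not show that a factor binds.

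**Figure D1:**
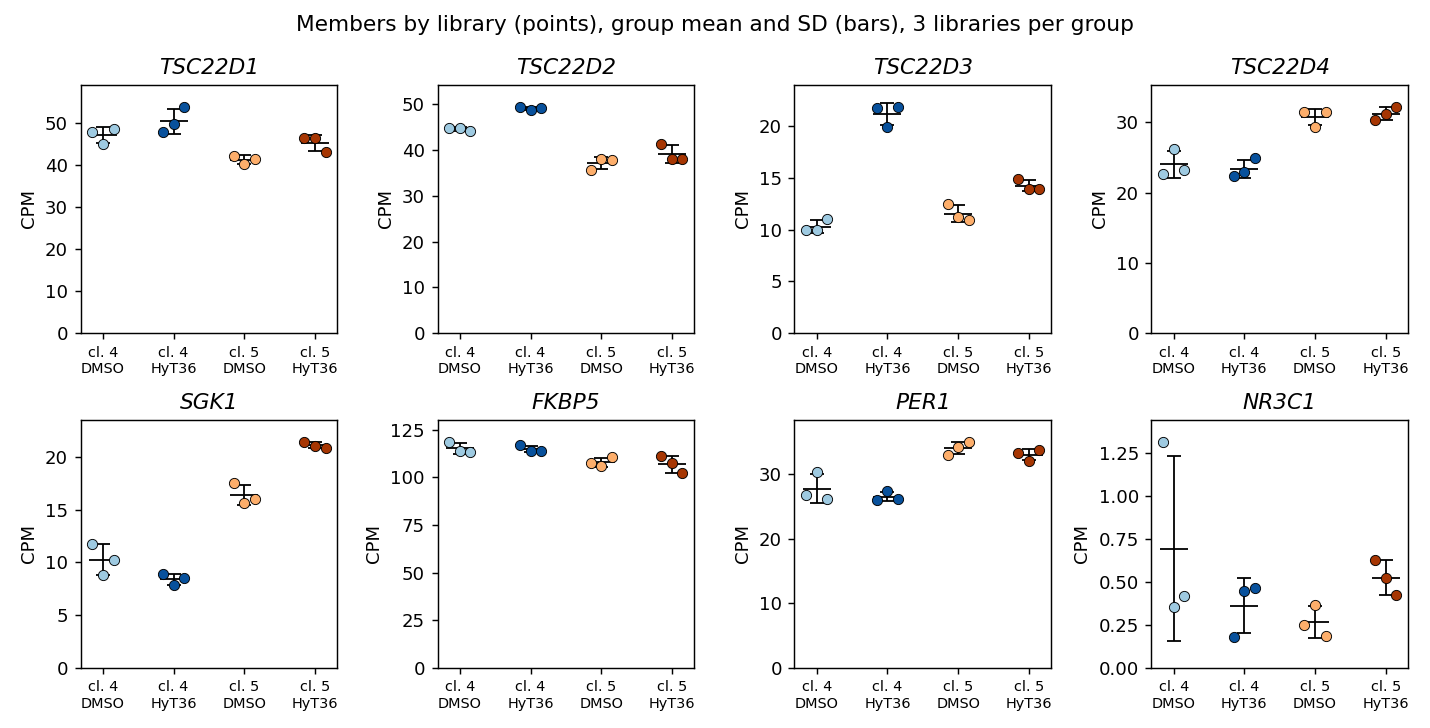
Levels of the 8 genes in CPM in each of the 12 libraries (points), with the mean and SD of each group of 3 (bars), every axis starting at 0. TSC22D3 in clone 4 lies between 19.98 and 21.8 CPM with HyT36 and at no more than 11.02 CPM with DMSO, and SGK1 is higher in all 6 clone 5 libraries than in all 6 of clone 4.

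NR3C1 itself, the receptor, was barely detected. Its reads in clone 4 numbered 31, 9 and 10 with DMSO (1.31, 0.353 and 0.416 CPM) and 5, 12 and 12 with HyT36 (0.180, 0.444 and 0.462 CPM). Those of clone 5 numbered 6, 10 and 5 with DMSO (0.250, 0.368 and 0.182 CPM) and 15, 12 and 10 with HyT36 (0.628, 0.521 and 0.424 CPM). All but 1 library were below 1 CPM. The exception, clone 4 DMSO replicate 1, was also the library with the highest epithelial marker sum, 106 CPM; the part of those transcripts in its NR3C1 reads was not tested. The log2 fold change with HyT36 was -0.93 ± 0.48 (SE) in clone 4, where the groups overlapped, and 0.96 ± 0.52 in clone 5, where they did not. Without clone 4 DMSO replicate 1 the clone 4 value was -0.09. NR3C2, the mineralocorticoid receptor, which also binds glucocorticoids, was at 6.93 ± 0.547, 7.57 ± 0.481, 4.83 ± 1.01 and 5.91 ± 0.208 CPM (SD, n = 3) in clone 4 without and with HyT36 and clone 5 without and with HyT36.

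TSC22D3 encodes a leucine zipper protein that restrains NF-kB and AP-1. It was at 9.94, 9.96 and 11.02 CPM in clone 4 with DMSO and at 21.8, 19.98 and 21.8 CPM with HyT36. Every HyT36 library of clone 4 was thus above every DMSO library, and the fitted ratio was 2.06-fold (log2 1.04 ± 0.08, SE). In clone 5 it was at 12.5, 11.3 and 10.96 CPM with DMSO and at 14.9, 13.9 and 14.0 CPM with HyT36. These groups did not overlap either, and the ratio was 1.24-fold (log2 0.31 ± 0.08). The response of clone 5 minus that of clone 4 was -0.73 ± 0.12. Ordered by level, clone 4 and clone 5 with DMSO came first and overlapped, followed by clone 5 with HyT36 and then clone 4 with HyT36, neither of which overlapped a neighbour. In clone 4 the log2 fold change was 1.05 in the libraries with few epithelial transcripts and 1.07 in those with many. With the epithelial sum as a covariate it was 0.25 in clone 5.

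SGK1, the serum and glucocorticoid regulated kinase, acts on ion channels and on the ubiquitin ligase NEDD4L. It was at 11.8, 8.78 and 10.3 CPM in clone 4 with DMSO and at 8.87, 7.84 and 8.54 CPM with HyT36. These groups overlapped, and the log2 fold change was -0.28 ± 0.09 (SE). In clone 5 it was at 17.5, 15.7 and 16.1 CPM with DMSO and at 21.4, 21.1 and 20.9 CPM with HyT36. Here every HyT36 library was higher, by 1.29-fold (log2 0.37 ± 0.08). SGK1 thus had opposite signs in the clones, and the response of clone 5 minus that of clone 4 was 0.65 ± 0.13. The clone 4 value was -0.10 in the libraries with few epithelial transcripts and -0.52 in those with many. With the epithelial sum as a covariate the clone 5 value was 0.45.

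FKBP5 encodes an HSP90 co-chaperone that lowers the hormone affinity of the receptor, and it is itself induced by glucocorticoids in many tissues. It was at 118, 114 and 113 CPM in clone 4 with DMSO and 117, 114 and 114 CPM with HyT36. Its clone 5 levels were 108, 106 and 111 CPM with DMSO and 111, 107 and 102 CPM with HyT36. The groups overlapped in both clones. Its log2 fold change was -0.00 ± 0.04 in clone 4, with a 95% interval from -0.08 to 0.08, and -0.01 ± 0.04 in clone 5, from -0.10 to 0.07. With 2411 to 3242 reads per library, it was the member with the most reads.

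PER1, a repressor in the circadian clock, was at 26.8, 30.4 and 26.3 CPM in clone 4 with DMSO and 26.1, 27.4 and 26.2 CPM with HyT36. Clone 5 had 33.1, 34.3 and 35.0 CPM with DMSO and 33.3, 32.1 and 33.7 CPM with HyT36. Here too the groups overlapped in both clones. The log2 fold change was -0.07 ± 0.06 in clone 4, with a 95% interval from -0.19 to 0.06, and -0.05 ± 0.06 in clone 5, from -0.17 to 0.08. In the same clone 4 libraries TSC22D3 was 2.06-fold higher with HyT36.

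**Figure D2:**
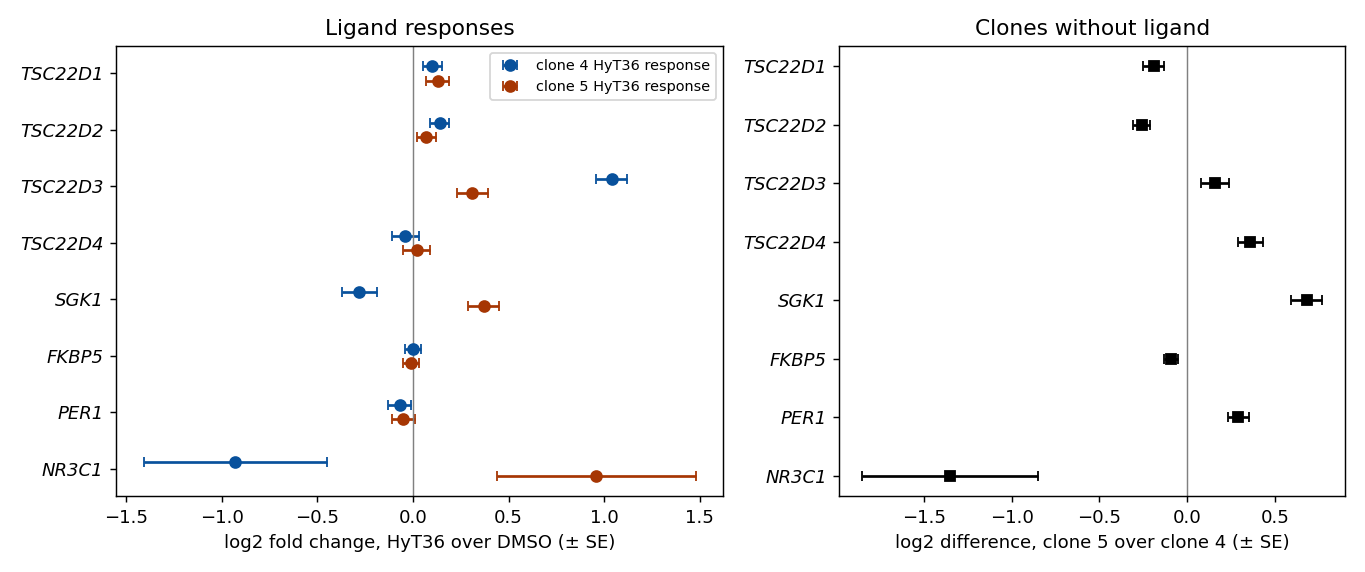
Left, log2 fold change of HyT36 over DMSO for each member in clone 4 (blue) and clone 5 (brown). Right, log2 difference of clone 5 over clone 4 with DMSO (squares); bars are SE. TSC22D3 in clone 4 (1.04) stands farthest to the right on the left side, the NR3C1 bars are widest on its few reads, and SGK1 is highest on the right side (0.68).

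The other TSC22 genes encode related leucine zipper proteins that pair with one another. TSC22D1 was at 47.9, 45.0 and 48.6 CPM in clone 4 with DMSO and at 47.9, 49.8 and 53.8 CPM with HyT36, overlapping groups with a log2 fold change of 0.10 ± 0.05 (SE). Clone 5 had 42.3, 40.4 and 41.5 CPM with DMSO and 46.4, 46.4 and 43.1 CPM with HyT36, groups that did not overlap, with 0.13 ± 0.06. Its antisense neighbour TSC22D1-AS1 had 5 to 16 reads per library, against 1016 to 1398 for TSC22D1.

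TSC22D2 was at 44.9, 44.8 and 44.1 CPM in clone 4 with DMSO and at 49.3, 48.8 and 49.1 CPM with HyT36. Those groups did not overlap, and the log2 fold change was 0.14 ± 0.05. The clone 5 levels were 35.6, 38.0 and 37.8 CPM with DMSO and 41.4, 37.9 and 38.0 CPM with HyT36, which overlapped (0.07 ± 0.05). TSC22D4 was at 22.6, 26.2 and 23.3 CPM in clone 4 with DMSO and 22.4, 22.9 and 24.9 CPM with HyT36, and at 31.4, 29.4 and 31.5 against 30.3, 31.2 and 32.1 CPM in clone 5. Its groups overlapped in both clones (-0.04 ± 0.07 and 0.02 ± 0.07). None of these 3 paralogs moved by as much as TSC22D3 in clone 4, by their values.

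Counted by the threshold used across all genes (edgeR, adjusted p under 0.05), 1 of the 8 members was past it in the clone 4 response, and higher with HyT36. Of all 14892 genes tested there, 5.57% were past it, 2.21% higher and 3.36% lower. In the clone 5 response 2 members were, both higher, against 8.19% of all genes, 3.35% higher and 4.83% lower. In the difference of responses 2 were, against 0.302%, 1 in each direction, against 0.128% and 0.175%. Libraries of the 2 treatments did not overlap for 2 members in clone 4, against 23.5% of genes, and for 4 in clone 5, against 25.1%. Nothing is read from these counts, because the same responses chose the members.

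As far as is known, the comparison of the clones without ligand did not choose the members. It is not independent of their choice, since its DMSO libraries are also the baseline of the ligand responses. Here 6 of 8 passed the test, 3 higher and 3 lower in clone 5. Clones differed widely, with 55.5% of all genes past the threshold, 27.3% higher and 28.2% lower, and non-overlapping libraries in 59.8%. A count of 6 in 8 is not far from that background. SGK1 was higher in clone 5 than in clone 4, 16.4 ± 0.980 against 10.3 ± 1.49 CPM (SD, n = 3), 1.6-fold (log2 0.68 ± 0.09 SE, edgeR adjusted p = 2.1e-08). TSC22D4, at 30.8 ± 1.196 against 24.0 ± 1.90 CPM, was higher by log2 0.36 ± 0.07 (edgeR adjusted p = 2e-05). PER1, at 34.1 ± 0.986 against 27.8 ± 2.25 CPM, was higher by 0.29 ± 0.06 (edgeR adjusted p = 0.00015). The libraries of both clones did not overlap for any of these 3.

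TSC22D1 and TSC22D2 were lower in clone 5, at -0.19 ± 0.06 and -0.26 ± 0.05 (edgeR adjusted p = 0.0037 and 6.8e-05). NR3C1 was lower at -1.35 ± 0.50 (edgeR adjusted p = 0.02), on 5 to 31 reads per library. That call ended without clone 4 DMSO replicate 1 (-0.52, edgeR adjusted p = 0.46). It also ended without clone 5 DMSO replicate 1 (edgeR adjusted p = 0.058) or replicate 3 (edgeR adjusted p = 0.09). NR3C2, named after its value was seen, was lower too (-0.51 ± 0.13, edgeR adjusted p = 0.001). TSC22D3 did not pass (0.16 ± 0.08, edgeR adjusted p = 0.1), nor did FKBP5 (-0.09 ± 0.04, edgeR adjusted p = 0.052). FKBP5 passed without clone 5 DMSO replicate 3 (-0.11, edgeR adjusted p = 0.04), so that result lies at the threshold.

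Beyond the members, 40 textbook glucocorticoid receptor targets were followed, of which 36 had enough reads. Leaving out the 4 members among them, 5 of 32 rose and 2 fell in clone 4, and 5 rose and 4 fell in clone 5. These are 21.9 and 28.1% of the list, beside 5.57 and 8.19% of all genes tested. This list and those below were chosen with earlier results of these data known. Their shares are therefore descriptions, and no excess over all genes is read from them. The list's median log2 fold change was -0.07 in clone 4 and 0.04 in clone 5, against 0.00 over all genes in each. Metallothioneins, small metal-binding proteins, were among the rises in both clones. MT1X went from 60.9, 58.9 and 63.2 CPM to 80.7, 72.6 and 79.5 CPM in clone 4, a log2 change of 0.35 ± 0.05 (edgeR adjusted p = 2.7e-06), and rose by 0.19 ± 0.05 in clone 5 (adjusted p = 0.0061). MT2A rose by 0.22 ± 0.04 and 0.19 ± 0.04 (edgeR adjusted p = 0.00057 and 0.0021).

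KLF15, a metabolic transcription factor, rose by 0.45 ± 0.12 in clone 4 and 0.50 ± 0.12 in clone 5 (edgeR adjusted p = 0.012 and 0.0037). NEDD9, an adhesion scaffold, rose in clone 5 (0.22 ± 0.04, edgeR adjusted p = 0.00099) and was at -0.02 in clone 4. CEBPB, a stress-responsive transcription factor named after its value was seen, rose in clone 4 from 7.65, 7.33 and 6.82 CPM to 16.5, 17.6 and 22.2 CPM (1.37 ± 0.24, edgeR adjusted p = 0.012); without clone 4 DMSO replicate 3 its adjusted p was 0.051. PIK3R1, a regulatory subunit of phosphoinositide 3-kinase, fell by 0.37 and 0.33 on the log2 scale (edgeR adjusted p = 0.0017 and 0.0032), and ZFP36L2, an RNA-decay factor, fell by 0.29 and 0.22 (edgeR adjusted p = 0.00091 and 0.015). KLF9 and DUSP1, widely used hormone readouts chosen for mention after their values were seen, did not pass (-0.17 and -0.06 in clone 4, 0.01 and -0.24 in clone 5). With the epithelial sum as a covariate the list's 11 calls in clone 5, members included, became 5; among those lost were MT1X (adjusted p = 0.12), KLF15 (0.081) and PIK3R1 (0.22). In the clone 4 libraries with few epithelial transcripts, 2 with DMSO and 1 with HyT36, the list's 8 calls became 4, with MT2A (adjusted p = 0.055), ZFP36L2 (0.057) and PIK3R1 (0.33) among those lost.

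**Figure D3:**
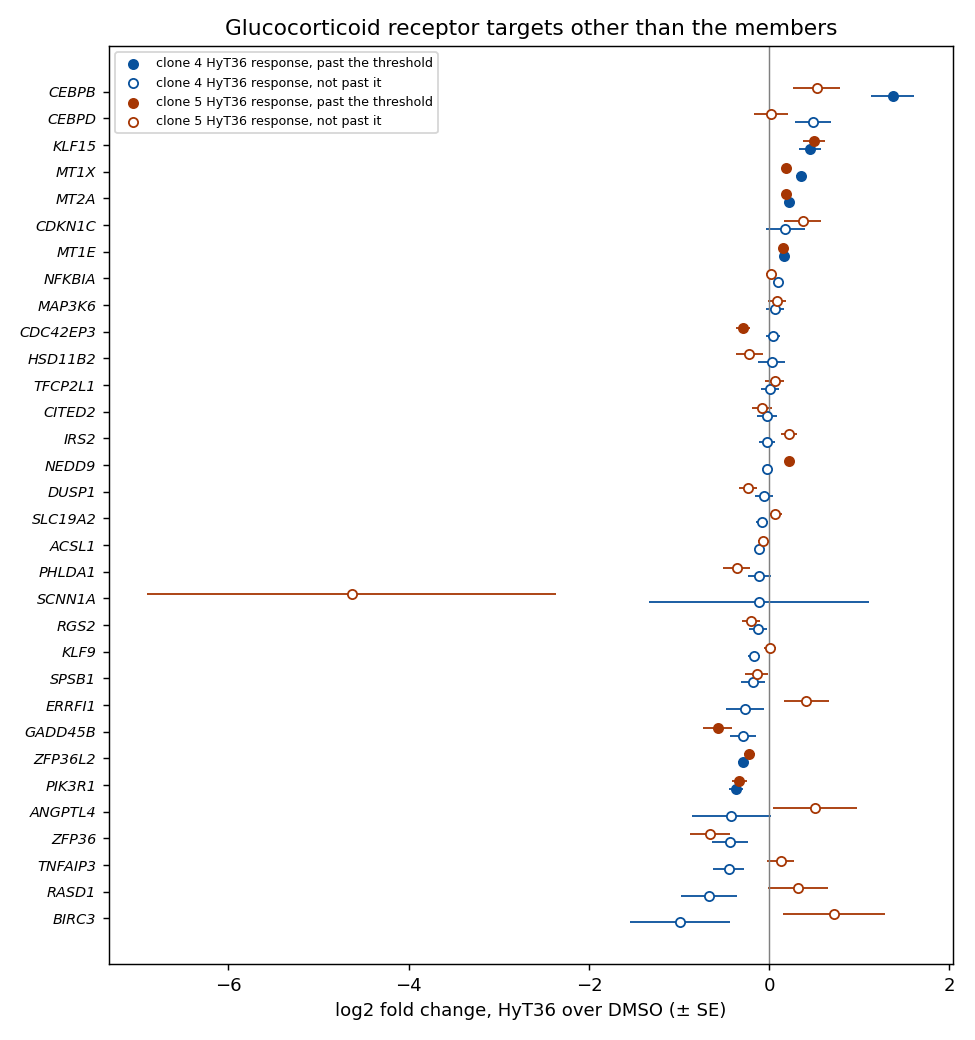
Log2 fold change with HyT36 of the 32 tested glucocorticoid receptor targets other than the members, in clone 4 (blue) and clone 5 (brown), with SE bars; filled points passed the threshold. Most points lie near 0, and the filled ones fall on both sides (5 up and 2 down in clone 4, 5 up and 4 down in clone 5). The longest bars belong to SCNN1A, with 0 to 33 reads per library. BIRC3 comes next, with 68 to 519 reads and a wide spread in clone 4 with DMSO (11.5 ± 9.10 CPM, SD).

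Among 27 genes of the receptor complex and its cofactors, 2 rose in clone 4 (7.41%, beside 5.57% of all genes called) and 6 in clone 5 (22.2%, beside 8.19%), and none fell. The clone 4 share is near that of all genes. HSP90AB1, an HSP90 chaperone gene, rose by 0.13 ± 0.04 in clone 4 and 0.14 ± 0.04 in clone 5 (edgeR adjusted p = 0.022 and 0.0062). HSP90AA1, another HSP90 gene of the list, named after its values were seen, did not pass. It was at 0.09 ± 0.03 in each clone (edgeR adjusted p = 0.13 in clone 4 and 0.12 in clone 5). The HSP40 co-chaperone gene DNAJA1 rose in clone 4 (0.15, edgeR adjusted p = 0.018). In clone 5 the coactivator genes NCOA2 (0.22), MED1 (0.20), CREBBP (0.20) and NCOA3 (0.20) rose (edgeR adjusted p = 0.0031, 0.0033, 0.024 and 0.034). The count in clone 4 was 0 without clone 4 DMSO replicate 1, HyT36 replicate 1 or HyT36 replicate 3, and 1 without HyT36 replicate 2; that in clone 5 was 2 without clone 5 DMSO replicate 1 or HyT36 replicate 2. By gene, the call of HSP90AB1 in clone 4 ended without DMSO replicate 1 or any HyT36 replicate, that of DNAJA1 without DMSO replicate 1, HyT36 replicate 1 or HyT36 replicate 3, and the 4 coactivator calls without at least 1 clone 5 library each. With the epithelial sum as a covariate the clone 5 calls of HSP90AB1 (0.08, edgeR adjusted p = 0.23) and NCOA3 (0.21, edgeR adjusted p = 0.13) ended. Of 16 tested FKBP immunophilins, the family of FKBP5, edgeR called 0 in either clone, as did DESeq2 and limma-voom, with 1 in clone 4 and 2 in clone 5 at an unadjusted p under 0.05. edgeR called 1 without clone 4 HyT36 replicate 1 in clone 4, and 1 without clone 5 HyT36 replicate 2 in clone 5.

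SGK1 acts downstream of mTORC2 and phosphoinositide 3-kinase. Of 21 tested genes of that pathway other than SGK1, 1 rose in clone 4 (4.76%, beside 2.21% of all genes higher) and none fell. In clone 5, 4 rose (19%, beside 3.35% of all genes higher) and none fell. Among the clone 5 rises were the SGK1 substrate NEDD4L (0.24), the deubiquitinase gene USP9X (0.12) and MTOR (0.17), each with an edgeR adjusted p of 0.021. With SGK1 the count in clone 5 was 5, and it was 2 without clone 5 DMSO replicate 1 or HyT36 replicate 2. By gene, the call of MTOR also ended without clone 5 HyT36 replicate 1 (0.11), that of USP9X without clone 5 DMSO replicate 2 (0.1) and with the epithelial covariate (0.09), and that of NEDD4L without clone 5 DMSO replicate 3 (0.053) or HyT36 replicate 3 (0.085).

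TSC22 proteins bind NRBP1 and WNK kinases, which set ion transport in response to cell volume. Of 14 tested genes of that group, 1 fell in clone 4, the K-Cl cotransporter gene SLC12A7 (-0.27, edgeR adjusted p = 0.045), and 1 rose in clone 5, WNK1 (0.18, edgeR adjusted p = 0.0031). That is 7.14% of the group in each clone, beside 5.57 and 8.19% of all genes tested in clones 4 and 5. SLC12A7 did not pass without clone 4 DMSO replicate 1 or 2, any of the 3 clone 4 HyT36 replicates, or clone 5 HyT36 replicate 1 or 3, with adjusted p from 0.051 to 0.21, nor with DESeq2 (0.074) or limma-voom (0.069). Of 20 tested clock genes, the group of PER1, 1 rose and 1 fell in clone 4 and 2 fell in clone 5. That is 10% of the list in each clone, beside the same 5.57 and 8.19% of all genes. Nothing is read from the counts of either group. The clock repressor NFIL3 rose in clone 4 (0.42, edgeR adjusted p = 0.0042), the PER kinase CSNK1D fell by 0.18 and 0.22 in clones 4 and 5 (edgeR adjusted p = 0.0052 and 0.00058), and the clock output factor TEF fell by 0.35 in clone 5 (edgeR adjusted p = 0.019). The call of CSNK1D in clone 4 ended without clone 4 DMSO replicate 2 (adjusted p = 0.054), and that of TEF without clone 5 DMSO replicate 1 (0.058) or 2 (0.081) or HyT36 replicate 2 (0.093) or 3 (0.12), or with the epithelial covariate (0.14).

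FOXO factors, held out of the nucleus by AKT and SGK kinases, have TSC22D3 among their known targets. Of 23 factors and targets other than TSC22D3, 6 rose and 2 fell in clone 4, and 7 rose and 2 fell in clone 5. These are 34.8 and 39.1% of the list, beside 5.57 and 8.19% of all genes tested. Earlier results of these data were known when this list was chosen too, so no excess is read from its shares. The list's median log2 fold change was 0.02 and 0.10, against 0.00 over all genes. CCNG2, an atypical cyclin, was at 11.04, 8.55 and 11.2 CPM in clone 4 with DMSO and at 19.2, 16.4 and 18.0 CPM with HyT36, a rise of 0.80 ± 0.09 (edgeR adjusted p = 2.8e-08). In clone 5 it rose by 0.56 ± 0.08 (edgeR adjusted p = 1.2e-05), with no overlap in either clone. KLHL24, a ubiquitin ligase adaptor, rose by 0.52 ± 0.09 and 0.64 ± 0.08 (edgeR adjusted p = 0.00016 and 9.6e-07).

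KLF6, a transcription factor, rose by 0.40 and 0.28 (edgeR adjusted p = 2e-06 and 0.00099), and the cell cycle inhibitor CDKN1B rose by 0.23 and 0.16 (edgeR adjusted p = 0.0001 and 0.0089). FOXO3 itself rose in clone 5 (0.26, edgeR adjusted p = 0.0042) and was at 0.10 in clone 4. GADD45A, a growth arrest gene, fell by 0.59 and 0.60 (edgeR adjusted p = 0.00017 in each). In clone 4 the call of CDKN1B ended in the libraries with few epithelial transcripts (adjusted p = 0.07), and those of KLHL24 (0.07), GADD45A (0.11) and BCL6 (0.3) in the libraries with many. BCL6, a transcriptional repressor named after its values were seen, was at 0.45 there, against 0.80 ± 0.17 over all clone 4 libraries (edgeR adjusted p = 0.0018) and 0.71 ± 0.17 in clone 5 (edgeR adjusted p = 0.0052). TXNIP, a redox and glucose sensor named after its value was seen, fell by 2.86 in clone 5 (edgeR adjusted p = 0.0066). In clone 4 it was at 27.2 CPM in the DMSO library with many epithelial transcripts and at 11.8 and 12.4 CPM in the other two, and at 6.78 CPM in the HyT36 library with few and 15.8 and 15.7 CPM in the other two. TXNIP thus moved with those transcripts, whose part in its fall was not tested beyond the covariate fit, where the fall in clone 5 was -1.95.

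**Figure D4:**
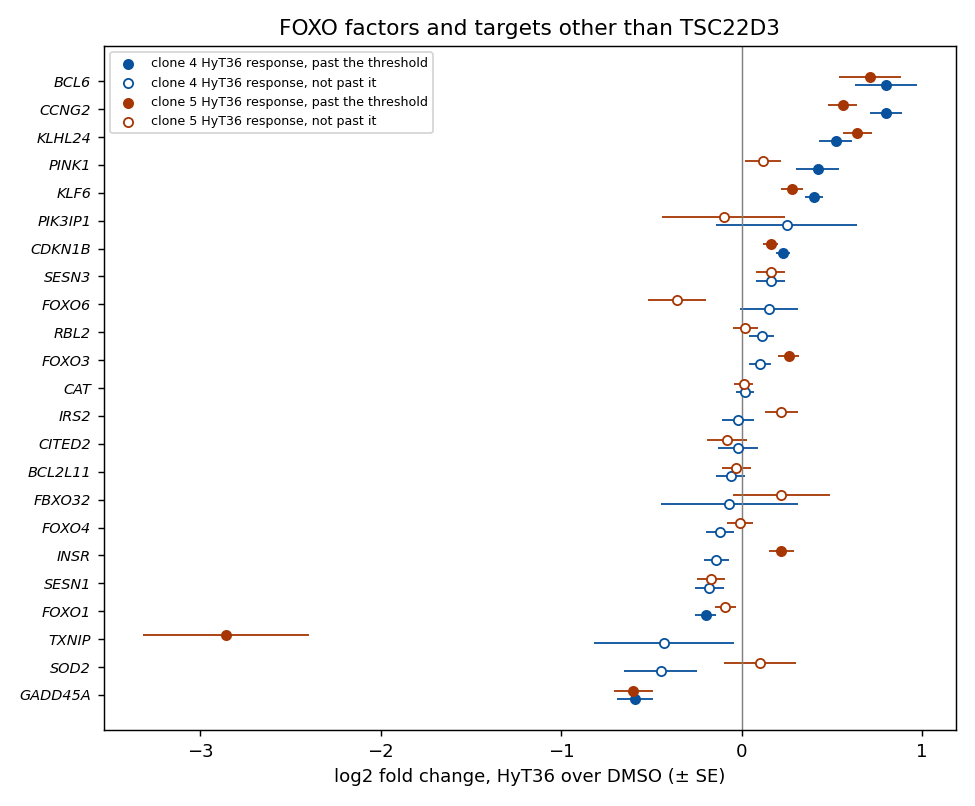
Log2 fold change with HyT36 of the 23 FOXO factors and targets other than TSC22D3, in clone 4 (blue) and clone 5 (brown), with SE bars; filled points passed the threshold. BCL6, CCNG2, KLHL24, KLF6 and CDKN1B are filled to the right in both clones (BCL6 and KLHL24 in clone 4 not when only libraries with many epithelial transcripts are used, and CDKN1B not with few), GADD45A is filled to the left in both (in clone 4 not in the libraries with many), and TXNIP in clone 5 lies at -2.86.

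The genes whose pattern over the 12 libraries was most like that of a member were found among the 11480 genes whose log2 CPM averaged 1 or more, by Pearson correlation of log2 CPM, as a description. For TSC22D3 they were DNAJB1 (0.970), DDIT4 (0.955), HERPUD1 (0.954), ZNF277 (0.928) and SNN (0.916). DNAJB1 is an HSP40 chaperone, DDIT4 restrains mTORC1 and HERPUD1 sits in the ER membrane, where it helps remove misfolded proteins. DDIT4 was at 6.85, 4.47 and 3.25 CPM in clone 4 with DMSO and at 55.0, 59.1 and 61.2 CPM with HyT36, and at 5.83, 4.56 and 4.37 against 18.4, 17.2 and 17.7 CPM in clone 5. Like TSC22D3, these 5 genes had larger log2 fold changes in clone 4 (0.19 to 3.59) than in clone 5 (0.10 to 1.86). Because they were picked for following TSC22D3 over these same libraries, that likeness is built into the choice and nothing is read from it.

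For SGK1 the 5 were ZBTB20 (0.977), ATP2B4 (0.976), IQCE (0.973), SHROOM4 (0.972) and DEPTOR (0.972). ZBTB20 is a transcriptional repressor, ATP2B4 a plasma membrane calcium pump and DEPTOR an mTOR inhibitor that is also in the mTORC2 list. All 5 were higher in clone 5 than in clone 4 with DMSO, by 0.40 to 1.32 on the log2 scale. The points share libraries, scaling and the split between the clones, which a correlation over all 12 also measures.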

How the data were processed

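Per the labels' protocols, frozen cell pellets were sequenced by a service after polyA selection. What the authors deposited is a single table of unnormalized counts for 36601 genes, 22344 guides and 4 summary entries, per the file headers. Summary entries took 16.1 to 17.6% and guides 0.00831 to 0.0125% of all counts and entered neither library sizes nor tests. The submitters' processing notes name GRCh38 and Cell Ranger 7. For these libraries, aligner and strand setting are not stated (not given in the sources used here), so reads of antisense or overlapping genes cannot be told apart. Of 36 samples, 24 (16 single-cell, 8 guide) were not analysed here.

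Counts were tested with edgeR 4.0.16 in R 4.3.3: filterByExpr by group, TMM scaling, 1 mean per group over all 12 libraries, and the robust 2-sided quasi-likelihood F-test. P-values were adjusted by Benjamini-Hochberg over 14892 genes, and the threshold was 0.05. SE is the absolute log2 fold change over the root of F, and CPM is TMM-scaled. The code was tested on simulated data. Alternatives were DESeq2 1.42.0, limma-voom (limma 3.58.1), other scaling and filters, a replicate block, epithelial markers as covariate or as library filter, and leaving out each library.

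The members and gene lists were chosen with earlier results of these data known. Named are all members, up to 5 called genes with the smallest p per list and response, and the 5 genes most correlated with TSC22D3 and with SGK1; exceptions are stated, and some genes of the SGK and mTORC2 list are not reported here. Of the gene IDs, 36366 matched the symbol table. Promoters are the 250 bases before RefSeq starts on GRCh38.p14; searched motifs are spelled out in the text. Nothing in the labels says that replicates came from separate cultures; p-values therefore reflect the spread of these samples only, and that may be technical. Replicates of a group differed by a chi-square per degree of freedom of 1.96 to 8.71, so no pair looked like 1 library deposited again.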

Additional observations from a re-analysis of the deposited data

Results flagged for a closer look

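In the interaction contrast across all genes, 2 members and 2 of the genes most like TSC22D3 were past the threshold. Clone 5 minus clone 4, the log2 difference was -0.73 for TSC22D3 and 0.65 for SGK1. It was -0.46 for the chaperone gene DNAJB1 and -0.43 for HERPUD1, a gene of ER-associated degradation. DDIT4, also among the 5 genes most like TSC22D3, had a difference of -1.73 ± 0.28 (SE) that did not pass the threshold. The members were chosen with their responses known, and DNAJB1, HERPUD1 and DDIT4 for following TSC22D3 over these same libraries. The differences are therefore descriptions, given without p-values, and nothing is read from which of them passed. Both comparisons use separate DMSO libraries, and in clone 5 those libraries all hold many epithelial transcripts. With the epithelial sum as a covariate the difference was -0.81 for TSC22D3 and 0.76 for SGK1.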

How the results depend on the processing

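In all, 95 results were recomputed under 22 alternatives. Of the recomputed values, 1796 counted as the same. For tests this meant the same side of the threshold, for counts within 1.5 times, and for the members' ligand responses within the replicate SD. A response near 0 could change sign within that SD, as FKBP5 in clone 5 did (-0.04 to 0.02, leaving out each library). Another 65 counts or responses moved further, 93 calls were lost and 5 gained. No result past the threshold in the main fit changed sign. The response of TSC22D3 kept its sign throughout, at 1.02 to 1.09 in clone 4 and 0.25 to 0.36 in clone 5. With only the libraries with few epithelial transcripts, clone 4 gave 287 genes called, 4 glucocorticoid receptor targets, 0 cofactors, 0 genes each of the WNK, SGK and clock lists, and log2 values of 0.03 for TSC22D1, -0.14 for TSC22D4, -0.10 for SGK1 and 0.04 for FKBP5; that fit has 1 HyT36 library, assumed to vary like the others. With only the libraries with many, an alternative chosen after seeing the data and with 1 clone 4 DMSO library, clone 4 gave 3 SGK pathway genes, 1 clock gene, and 0.08 for TSC22D4, -0.52 for SGK1, -0.05 for FKBP5 and 0.00 for PER1. In clone 5 neither subset could be fitted, because no library with DMSO had few epithelial transcripts. With the epithelial covariate the difference of responses had 265 genes, the cofactors 4 and the SGK pathway 2 in clone 4, and the glucocorticoid targets 5 and the clock 1 in clone 5; the difference was 0.10 for TSC22D1 and 3.44 for NR3C1, whose clone 5 value was 2.24. Without a low-count filter the difference of responses had 169 genes and the clock list 4 in clone 5; fitting clone 5 alone gave 8 SGK pathway genes. DESeq2 and limma-voom called 0 WNK genes in clone 4. In the clone comparison FKBP5 passed with DESeq2 (-0.10, adjusted p = 0.045), RLE size factors (-0.10, 0.042) and only the libraries with many epithelial transcripts (-0.13, 0.037), and NR3C1 failed with limma-voom (-1.11, 0.057). The share of calls that were higher was 39.6% in clone 4 and 40.9% in clone 5. It was 42.1 and 48.8% with RLE size factors in edgeR, and 48.7 and 50.9% with DESeq2, which changes the test as well as the scaling, with the median of all genes within 0.01 of 0 on the log2 scale.

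Leaving out each library in turn, the genes called ranged from 409 to 851 in clone 4 (545, 532 and 409 without HyT36 replicates 1, 2 and 3), from 755 (without DMSO replicate 1) to 1618 in clone 5, and from 25 to 140 in the difference. Cofactors ranged from 0 to 2 and from 2 to 8 in clones 4 and 5, immunophilins from 0 to 1 in each, SGK pathway genes from 0 to 1 and 2 to 7, WNK genes from 0 to 1 in clone 4, and clock genes from 1 to 2 and 1 to 3. NR3C1 ranged from -1.24 to -0.09 in clone 4, from 1.05 to 2.21 in the difference and from -1.67 to -0.52 between clones. PER1 in clone 4 ranged from -0.1 to 0.01, and FKBP5 between clones from -0.11 to -0.07.

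No pairing by replicate number was seen. The deviations of same-numbered libraries correlated at -0.43, -0.15 and -0.22 in clone 4 and -0.05, -0.08 and -0.11 in clone 5. In clone 4, DMSO replicate 1 and HyT36 replicate 1 also stood apart from their groups in epithelial transcripts. The check therefore cannot show that the libraries were unpaired. With a replicate block, 715 genes were called in clone 4, 1083 in clone 5 and 43 in the difference, 1 cofactor was called in clone 4, where HSP90AB1 had an adjusted p of 0.054, and TSC22D3 was at 1.04 and 0.30. Depth limited NR3C1 most, at 5 to 31 reads per library.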
